A study of Mus musculus with 2 samples.

Results

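Small leucine-rich proteoglycans were followed through single-cell RNA sequencing of the mouse dorsal meninges. The genes were those whose symbol in the deposited feature table is Dcn, Bgn, Aspn, Lum, Fmod, Prelp, Omd, Ogn, Podn or Chad, 10 genes of the 32285 in the table, and all 10 had UMIs in both libraries. A UMI, or unique molecular identifier, marks 1 captured transcript. Both libraries came from male C57BL/6 mice (C57BL/6J in the methods) of 10 weeks (another label gives a range that starts at that age). The Sham library pooled the meninges of 5 mice taken 1 week after a Sham procedure, and the TBI library pooled those of 5 mice taken 1 week after a mild closed-skull traumatic brain injury (TBI). The tissue was scraped from the skullcap, digested, and sorted for live single cells before capture on the 10x Genomics 3′ platform. With 1 library per group the difference between Sham and TBI has no replicate, so values are given with exact 95% intervals that cover counting error only, and no test between the groups was made.

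These proteins are built around a small core of leucine-rich repeats, and most carry glycosaminoglycan chains. They coat collagen fibrils and set fibril thickness and spacing, and several of them also hold growth factors such as TGF-β in the matrix. Decorin (Dcn), biglycan (Bgn) and asporin (Aspn) form class I, lumican (Lum), fibromodulin (Fmod), Prelp and osteomodulin (Omd) class II, osteoglycin (Ogn) belongs to class III, and chondroadherin (Chad) and podocan (Podn) to the non-canonical classes. The dura mater is a collagen-rich sheet, and its fibroblasts, like those of tendon and skin, are a known source of these proteins.

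Of the genes, 7 lie beside another of the 10 on the chromosome in GENCODE vM21 (GRCm38, the build of the deposited counts under its other name, mm10). Dcn (chr10:97479609-97518143) and Lum (chr10:97565128-97572703) are neighbours with 46984 bases and no coding gene between them. Aspn (chr13:49544443-49567565), Omd (chr13:49582462-49592822) and Ogn (chr13:49608046-49624501) follow each other on the plus strand, and all 3 lie inside Cenpp, which is read from the minus strand. Prelp (chr1:133910304-133921414) and Fmod (chr1:134037254-134048277) are read from opposite strands with 115839 bases between them. Bgn (chrX:73483602-73495933), Podn (chr4:108014791-108096445) and Chad (chr11:94565047-94569127, inside the oppositely read Acsf2) stand apart from the others. No exon of another gene overlapped an exon of the 10 on the same strand. On the opposite strand, exons of Cenpp overlapped Aspn and exons of Gm15851 overlapped Prelp.

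Aspn had its highest mean level outside fibroblast-like cells, and the mean levels of Chad in fibroblast-like and gamma-delta or Th17-like cells could not be ordered. Of the other genes, Prelp and Ogn had the smallest fold between fibroblast-like cells and the next class, as described below. For these 4 genes the 250 bases upstream of their RefSeq starts (GRCm38.p6) are shown. RefSeq windows were matched for 8 of the 10 genes. Capitals mark TATAAA on either strand.
Aspn, chr13:49544193-49544442, plus strand: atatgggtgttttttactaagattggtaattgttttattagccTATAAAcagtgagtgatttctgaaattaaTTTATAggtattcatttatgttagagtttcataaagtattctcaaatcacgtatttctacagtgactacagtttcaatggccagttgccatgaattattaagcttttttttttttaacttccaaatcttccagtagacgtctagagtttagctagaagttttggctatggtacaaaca
Prelp, chr1:133921402-133921651, minus strand: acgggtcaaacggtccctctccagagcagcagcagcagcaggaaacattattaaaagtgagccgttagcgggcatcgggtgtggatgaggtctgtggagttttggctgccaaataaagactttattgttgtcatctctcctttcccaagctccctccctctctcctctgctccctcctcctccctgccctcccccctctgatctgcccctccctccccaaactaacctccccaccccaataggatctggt
Ogn, chr13:49607765-49608014, plus strand: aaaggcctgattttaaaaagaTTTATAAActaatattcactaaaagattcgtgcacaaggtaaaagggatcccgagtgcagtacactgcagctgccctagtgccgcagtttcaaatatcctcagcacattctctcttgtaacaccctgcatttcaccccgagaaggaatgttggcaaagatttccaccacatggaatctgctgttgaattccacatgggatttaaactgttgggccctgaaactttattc
Chad, chr11:94564797-94565046, plus strand: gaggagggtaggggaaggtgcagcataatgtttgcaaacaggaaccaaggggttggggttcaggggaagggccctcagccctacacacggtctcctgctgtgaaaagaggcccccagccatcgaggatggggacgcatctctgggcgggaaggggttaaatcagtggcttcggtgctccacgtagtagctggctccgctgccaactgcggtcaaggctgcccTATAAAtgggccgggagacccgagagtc
TATAAA was found in these windows of Aspn, Ogn and Chad, 3 of the 8 genes, and in 12.4% of the 32851 windows of all genes. The Chad match began at position -28 from the start, while those nearest the start in Aspn and Ogn began at -178 and -227. GGGCGG, the Sp1 site, was in the windows of Bgn, Chad and Podn and in 32.7% of all windows, and TGANTCA, the AP-1 site, was in none of the 8 genes and in 6.75% of all windows. CANNTG, the E-box, was in 6 of the 8 genes and 66.2% of all windows. The Aspn window was the poorest in G and C, at 30.0%, against a median of 52.4% over all windows. These matches are a description of letters and not of binding.

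The filtered libraries held 2043 Sham and 3773 TBI cells with 7866611 and 13940740 UMIs. Cells were clustered without the 10 genes, and clusters were named from marker lists that do not hold them, giving 19 named classes, written with -like, and an unnamed cluster of 47 Sham and 102 TBI cells of low depth. Fibroblast-like cells numbered 120 in Sham and 757 in TBI, 5.87% and 20.1% of the cells, in 2 clusters that showed 19 and 17 of the 19 fibroblast markers. Of the barcodes, 14 occurred in both filtered libraries. Levels below are UMIs summed over the cells of a class and divided by all UMIs of that class, in CPM, that is per 1000000 UMIs. Because each UMI stands for 1 captured 3′ end, they are not divided by gene length.

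Fibroblast-like cells held most of the transcripts of this family. They gave 3271 of 3927 Sham UMIs of the 10 genes, 83.3% (82.1 to 84.4), and 17761 of 20416 TBI UMIs, 87.0% (86.5 to 87.5). For 8 of the 10 genes fibroblast-like cells had the highest mean CPM of the 2 libraries among the 19 classes, whereas 11.6% of all 14782 genes with at least 20 UMIs peaked there. The remaining genes were Aspn, which peaked in pericyte-like cells, and Chad, whose mean was 126.6 CPM in gamma-delta or Th17-like cells and 125.6 CPM in fibroblast-like cells. The last 2 values cannot be ordered, since the first rests on 22 UMIs and the order of the classes differed between the libraries.

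**Figure D1:**
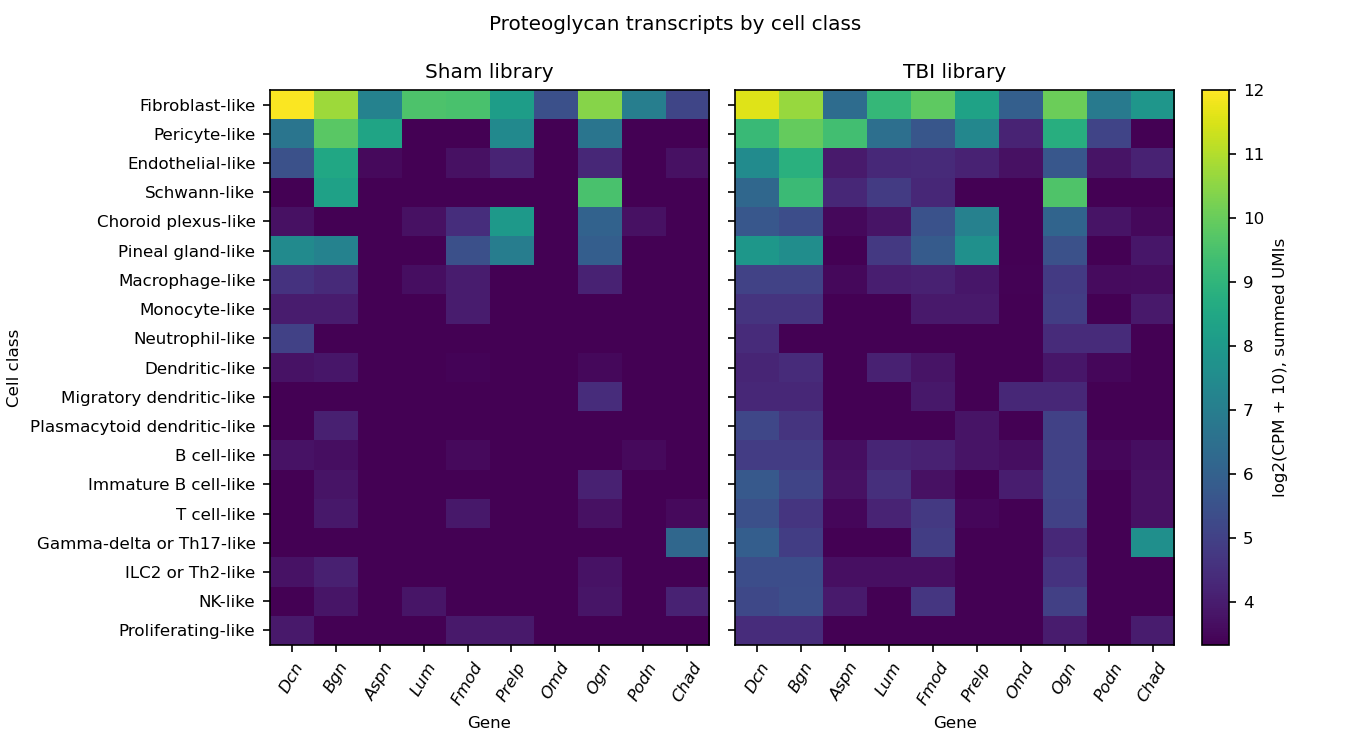
Level of each gene (columns) in each named cell class (rows), as log2 of summed CPM plus 10, in the Sham library (left) and the TBI library (right). The top row, fibroblast-like cells, is the brightest for most genes. Below it, Aspn in pericyte-like cells, Ogn in Schwann-like cells and Prelp in choroid plexus-like cells stand out in both libraries. Chad in gamma-delta or Th17-like cells stands out in TBI, while its Sham level of 64.2 CPM rests on 3 UMIs, the floor of 3 counts.

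Dcn, the collagen-fibril and TGF-β binding proteoglycan, stood at 3941 CPM in Sham and 3022 CPM in TBI fibroblast-like cells. The next class was pericyte-like cells, 10.3 times lower by the mean of the libraries. Lum, which regulates fibril diameter in cornea and skin, stood at 754 and 539.5 CPM and was 16.0 times lower in its next class, again pericyte-like cells. Fmod, a fibril regulator best known from tendon, stood at 718 and 918 CPM and was 20.4 times lower in its next class, pineal gland-like cells. Podn and Omd were scarcer, at 122 and 106 CPM for Podn and 33.1 and 51.3 CPM for Omd, and their next classes were more than 8 times lower (9.36 and 8.66). Those 2 folds rest on few counts. Podn gave 0 Sham and 3 TBI UMIs in pericyte-like cells, and Omd 0 and 2 in migratory dendritic-like cells. Bgn at 1682 and 1622 CPM, Ogn at 1348 and 1055 CPM, and Prelp at 276 and 313 CPM were closer to their next classes, which were 1.79, 1.61 and 1.58 times lower.

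Free RNA gives some UMIs in cells that do not make a gene, and B cell-like cells, which are not known to make these proteins, were used to gauge it. There the 10 genes together reached 9.69 CPM in Sham and 89.8 CPM in TBI, so the level in cells expected to lack them was higher in the TBI library. In the same cells the 19 fibroblast markers stood at 37.0 CPM in Sham and 405.3 CPM in TBI. After each cell of at least 1000 UMIs was thinned to 1000, Dcn was detected in 60.5% of 86 Sham and 58.1% of 663 TBI fibroblast-like cells, against 0.898% of 334 and 3.36% of 268 B cell-like cells. Unthinned, the shares were 63.3% and 69.0% of fibroblast-like cells (median depths 2188 and 2262 UMIs) and 1.08% and 5.52% of B cell-like cells (3082 and 2662.5 UMIs). The thinning left out 34 Sham and 94 TBI fibroblast-like cells and 37 and 22 B cell-like cells. Thinned fibroblast-like cells carried a median of 3 of the 10 genes in both libraries, with at most 7 in Sham and 8 in TBI, and no thinned B cell-like cell carried more than 2.

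Outside fibroblast-like cells, different genes of the family were found in different support cells. Aspn, which binds collagen and TGF-β and lacks the chain of its class I relatives, was highest of the 19 classes in pericyte-like cells. The markers of this class include the smooth muscle genes Myh11, Acta2 and Tagln as well as genes of pericytes. In these cells Aspn gave 14 UMIs in 10 of 23 Sham cells, 326 CPM (178 to 547). In TBI it gave 81 UMIs in 37 of 71 cells, 655 CPM (521 to 815). In fibroblast-like cells of the same libraries it stood at 135 CPM (100.1 to 178.9) and 73.2 CPM (62.4 to 85.3), so the pericyte-like level was above the fibroblast-like level in both. The intervals were apart in TBI but overlapped in Sham, where the lower bound in pericyte-like cells was 178.2 CPM. In B cell-like cells it gave 0 UMIs in 371 Sham cells, which by the limit of 3 counts allows a share of cells with a UMI of up to 0.809%, and 2 UMIs in 290 TBI cells. Bgn was also present in pericyte-like cells, with 37 Sham UMIs (862 CPM) and 122 TBI UMIs (987 CPM).

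Ogn, known as osteoglycin or mimecan, was next highest in Schwann-like cells, the glia of peripheral nerve. There it gave 52 UMIs in 11 of 35 Sham cells, 717 CPM (536 to 940.4), and 83 UMIs in 12 of 46 TBI cells, 775 CPM (617 to 961). In B cell-like cells it gave 0 UMIs in the 371 Sham cells, with the same limit, and 19 UMIs in 290 TBI cells. Bgn was present in Schwann-like cells too, with 22 UMIs in 10 Sham cells (303 CPM) and 64 UMIs in 25 TBI cells (598 CPM). Dcn, the most abundant of the genes in fibroblast-like cells, gave 0 Sham and 7 TBI UMIs there.

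Bgn was the gene of the family with most UMIs in endothelial-like cells. They gave 216 Sham UMIs in 77 of 308 cells (351 CPM) and 593 TBI UMIs in 217 of 579 cells (449.7 CPM), which was 23.3% and 12.7% of each library's Bgn. Among the 4 endothelial-like clusters the one led by Vwf, Slco2a1 and Selp, genes of veins, held most per UMI, at 766 CPM in Sham and 810.0 CPM in TBI. The cluster led by Slc38a5, Slco1a4 and Cldn5, genes of barrier vessels, held least, with 2 Sham and 9 TBI UMIs (65.7 and 79.1 CPM). The Sema3g-led cluster, with arterial genes, stood at 248 and 219 CPM and the Gpihbp1-led cluster, with capillary genes, at 268 and 365 CPM.

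Prelp, a heparin-binding member that anchors basement membranes to collagen, was shared with choroid plexus-like epithelium. Those cells gave 81 Prelp UMIs in 24 of 60 Sham cells (243 CPM) and 103 in 53 of 134 TBI cells (131 CPM), with 0 and 3 in B cell-like cells. That was 40.3% of all Sham and 11.4% of all TBI Prelp UMIs. In the same cells Dcn gave 1 Sham and 32 TBI UMIs. Pineal gland-like cells held Prelp as well, with 7 Sham UMIs in 3 of 38 cells and 46 TBI UMIs in 27 of 103 cells.

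**Figure D2:**
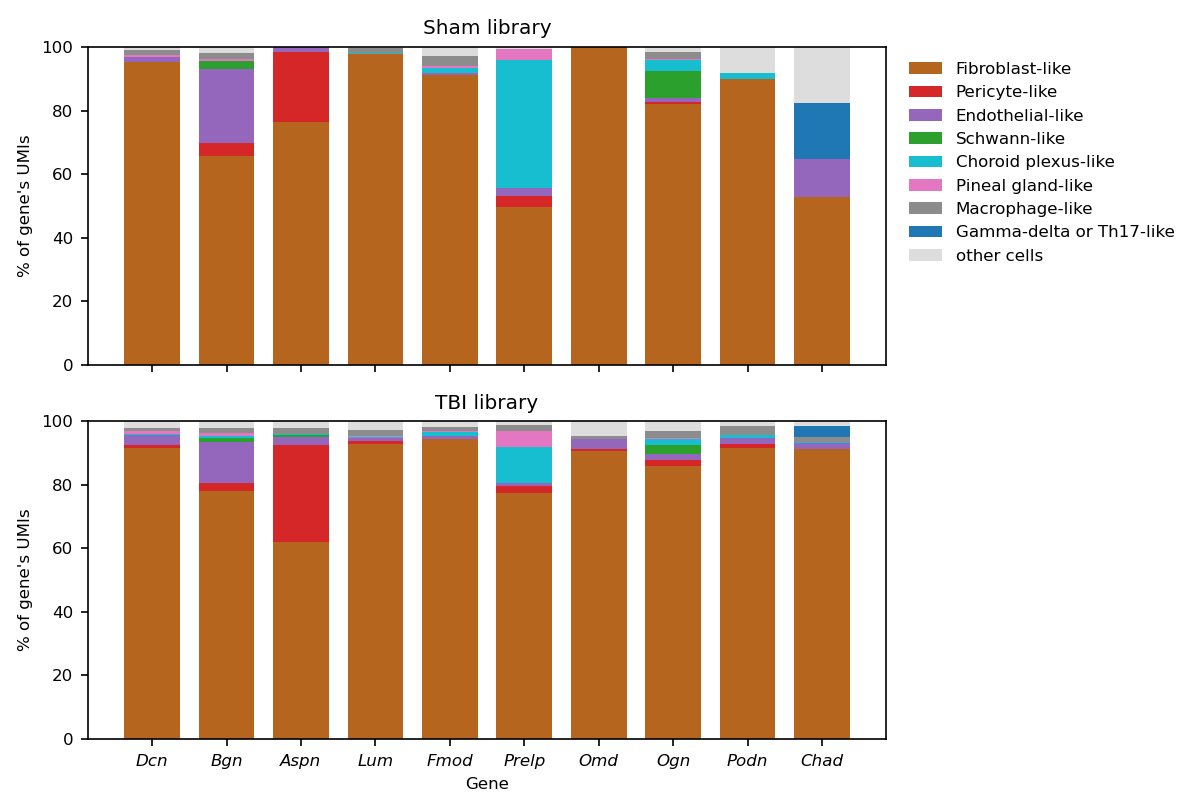
Share of each gene's UMIs held by each cell class, in the Sham library (top) and the TBI library (bottom), with each bar adding to 100%. Fibroblast-like cells (brown) make up most of nearly every bar, while endothelial-like cells hold 23.3% of Sham Bgn, pericyte-like cells 21.9% of Sham and 30.6% of TBI Aspn, and choroid plexus-like cells 40.3% of Sham Prelp.

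Chad, a cartilage protein that binds collagen and integrins, was detected in gamma-delta or Th17-like cells, a class of T cells. It gave 3 UMIs in 3 of 14 Sham cells, 64.2 CPM (13.2 to 187.6), and 19 UMIs in 8 of 31 TBI cells, 189 CPM (114 to 295). Among 1653 other lymphoid-like cells (B, immature B, T, ILC2 or Th2, and NK) 9 cells had a Chad UMI, or 0.544%, at a median depth of 2952 UMIs against 4176 UMIs in the 11 Chad-bearing cells. None of these 11 cells carried a UMI of another of the 10 genes, and none was a predicted doublet. Their fibroblast marker level was 190.1 CPM, against 437 CPM in the 34 gamma-delta or Th17-like cells without Chad. A relative of podocan, Podnl1, had its highest level in the same class, with 8 UMIs in 7 of 14 Sham cells and 25 UMIs in 18 of 31 TBI cells, and was also found in ILC2 or Th2-like cells (34 Sham and 35 TBI UMIs) and T cell-like cells (33 and 30 UMIs).

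Fibroblast-like cells were not uniform in these genes. Clustered again without the 10 genes, they fell into 11 subclusters, of which 8 had at least 20 cells. The levels that follow are sums over both libraries, because the Sham library gave between 1 and 35 cells to a subcluster. Their differences are descriptions of these 877 cells, and subclusters of 1 library are not replicates.

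The cells led by Clec3b and Pi16, genes of adventitial fibroblasts (8 Sham and 43 TBI cells), carried the most Dcn. They held 2207 Dcn UMIs, 19736 CPM, which was 4.58 times the next subcluster and 36.5 times the lowest, and 26.9% of all fibroblast-like Dcn from 51 cells. Among the 8 they were also highest in Lum (4006 CPM), Aspn (501 CPM), Ogn (2647 CPM) and Prelp (662 CPM). Their Aspn was 862 CPM in Sham, on 18 UMIs, and 418 CPM in TBI, on 38 UMIs. Pericyte-like cells stood at 326 and 655 CPM. The cells led by Comp, Cxcl14, Sfrp2 and Tnmd, in which Comp and Tnmd are genes of tendon and ligament (12 Sham and 132 TBI cells), were highest of the 8 in Bgn (2973 CPM), Fmod (2008 CPM) and Chad (762 CPM), and held 89.5% of fibroblast-like Chad. Their Lum stood at 203 CPM, between 4006 CPM in the Clec3b-led cells and 9.17 CPM in the lowest of the 8.

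Lum and Fmod went separate ways although both are class II genes. The cells led by Moxd1, Coch and Slc7a11 (16 Sham and 90 TBI cells) held 511 Lum UMIs and 11 Fmod UMIs, or 1602 and 34.5 CPM. The cells led by Penk and Hs3st1 (15 Sham and 120 TBI cells) held 15 Lum UMIs and 299 Fmod UMIs, or 25.6 and 511 CPM. Over the 8 subclusters Pearson's r between the log2 levels of Lum and Fmod was 0.01, while across the 36 columns of classes and libraries with at least 20 cells it was 0.90. Dcn and its chromosomal neighbour Lum varied together at both levels, with r of 0.83 over the subclusters and 0.86 over the columns. For Aspn and Ogn r was 0.85 and 0.65, for Omd and Ogn 0.24 and 0.62, for Aspn and Omd -0.12 and 0.57, and for Prelp and Fmod 0.44 and 0.72. High values were not limited to neighbours: on different chromosomes, r was 0.83 and 0.62 for Prelp and Ogn, and -0.13 and 0.93 for Lum and Podn. All columns share the free RNA of their library and all subclusters share 1 pool of cells.

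Omd, which binds bone mineral and collagen, had its highest CPM in 2 small subclusters. The cells led by Ptgds, Nnat and Slc22a8, genes of the arachnoid (4 Sham and 21 TBI cells), held 14 Omd UMIs, 268 CPM, with little Bgn (287 CPM) and no Aspn UMI among 52208. The cells led by Bglap, Tnc and Mmp13, genes of osteoblast-lineage cells (1 Sham and 17 TBI cells), held 21 Omd UMIs, 504 CPM, with 3769 CPM of Bgn, 3649 CPM of Lum and no Podn or Chad UMI among 41654. The single Sham cell gave 107 of the 157 Bgn and 73 of the 152 Lum UMIs, and the 17 TBI cells alone stood at 1992 CPM of Bgn and 3148 CPM of Lum. Bone lies next to the tissue that was scraped, and the part of bone cells in the Omd total was not tested beyond these counts. Podn, a smooth muscle and fibroblast member, ranged from 19.2 CPM, on 1 UMI, to 160.5 CPM over the 8 subclusters, and Ogn had an 8.02-fold range against 437-fold for Lum, whose lowest level rests on 2 UMIs. The subclusters led by Csf1r and by Ptprb, with macrophage and endothelial genes, held 14 predicted doublets among 19 cells and 5 among 6, and 1 cell of the Ptprb-led group held 29 Chad UMIs.

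**Figure D3:**
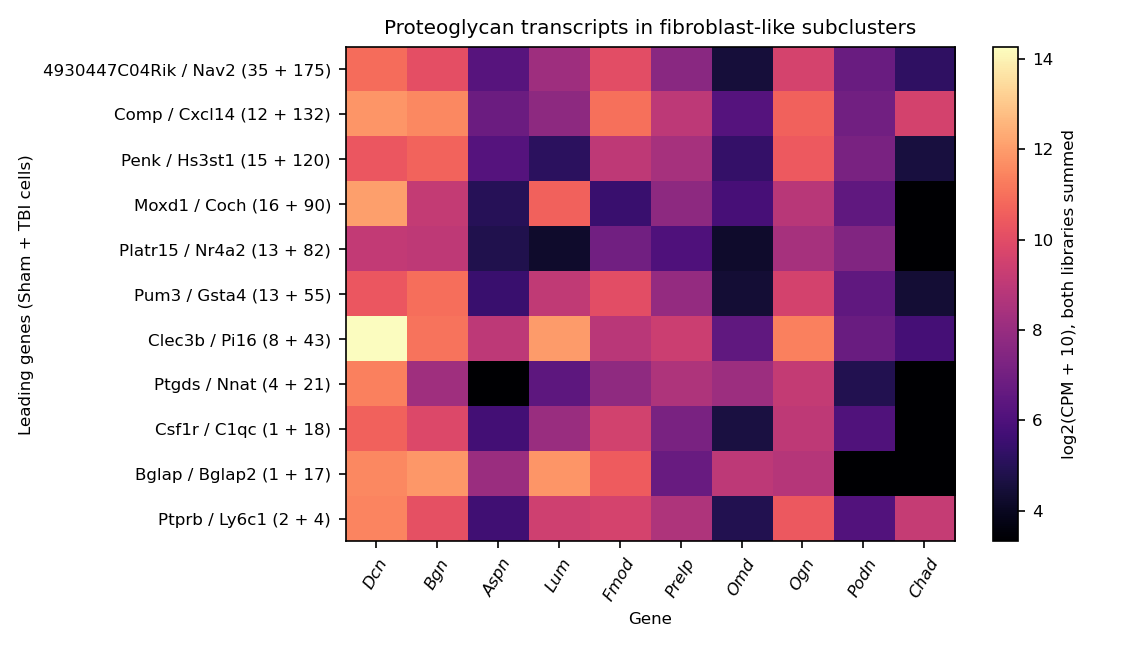
Level of each gene (columns) in the 11 subclusters of fibroblast-like cells (rows, named by 2 leading genes, with the number of Sham and TBI cells), as log2 of CPM plus 10 over both libraries. The Clec3b-led row is brightest for Dcn (19736 CPM) and Lum, the Comp-led row holds most Chad and Fmod, and the Moxd1-led row combines Lum with little Fmod.

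The question the design puts to these genes is whether they differed between Sham and TBI meninges. Over the whole filtered libraries the 10 genes together stood at 499 CPM in Sham and 1464 CPM in TBI, 2.93 times higher in the TBI library. The log2 ratio was 1.55 (1.503 to 1.602), and each of the 10 was higher, from 2.32-fold for Aspn to 17.9-fold for Chad. In such whole-library sums fewer cells of a type and less RNA per cell cannot be told apart. Fibroblast-like cells made up 4.60% of Sham UMIs and 16.1% of TBI UMIs, and in these cells alone the ratio of the 10 genes was on the other side of 0, at -0.19 (-0.24 to -0.13), from 9035 to 7926 CPM.

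Within fibroblast-like cells 8 of the 10 genes differed by less than 1.5-fold between the libraries, Omd only just, at 1.49-fold. At a limit of 20 UMIs the background was of similar size: among 10476 genes with at least 20 UMIs in these cells, 11.7% were higher in TBI by 1.5-fold or more and 12.7% lower. All 10 genes had at least 127 UMIs in these cells. At a limit of 100 UMIs both background shares were lower, as given in the last section. The median log2 ratio was -0.13 over the 10 genes and -0.03 over the 10476 genes. Summed over fibroblast-like cells, the class I genes were level or lower in TBI. Dcn gave 1427 Sham and 6771 TBI UMIs, a log2 ratio of -0.38 (-0.47 to -0.30). Bgn gave 609 and 3634 UMIs, -0.05 (-0.18 to 0.07). The values of the 2 fibroblast-like clusters differed in direction for both genes. The intervals of the libraries overlapped for Dcn in the Snhg11-led cluster and for Bgn in the other, so those directions are not resolved. In the cluster led by Ptgds and Igfbp6, Dcn stood at 4974 CPM in Sham and 3749 CPM in TBI. Bgn there stood at 2132 CPM (1962 to 2313) and 1969 CPM (1902 to 2038). In the Snhg11-led one (53 Sham and 308 TBI cells), Dcn stood at 886 CPM (703 to 1101) and 1000 CPM (921 to 1084). Bgn there stood at 350 CPM (239 to 494) and 656 CPM (592 to 725). Aspn, with 49 and 164 UMIs, was the gene past 1.5-fold on the lower side at -0.90 (-1.36 to -0.40), while in pericyte-like cells its ratio was 0.97 (0.18 to 1.94); the difference between these was not tested.

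The class II genes lay on both sides of 0. Lum gave 273 Sham and 1209 TBI UMIs, -0.48 (-0.67 to -0.29), and Fmod 260 and 2058 UMIs, 0.35 (0.17 to 0.55). By cluster, Lum stood at 994 CPM in Sham and 669 CPM in TBI in the one led by Ptgds and Igfbp6. In the Snhg11-led cluster it stood at 43.7 CPM in Sham, on 4 UMIs, and 180 CPM in TBI. Prelp gave 100 and 702 UMIs, 0.18 (-0.12 to 0.50), and Omd 12 and 115 UMIs, 0.58 (-0.23 to 1.62). The intervals of the last 2 contain 0. Omd was past 1.5-fold upward in 8 of 17 alternative settings of the processing. Ogn gave 488 and 2364 UMIs, -0.35 (-0.49 to -0.21), and Podn 44 and 237 UMIs, -0.21 (-0.67 to 0.30). Lum, Dcn, Ogn and Fmod had intervals apart from 0, but all 4 ratios were under 1.5-fold and rest on 1 library a side. At a finer clustering, Leiden resolution 1.6, Dcn (-0.61) and Lum (-0.88) were past 1.5-fold.

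**Figure D4:**
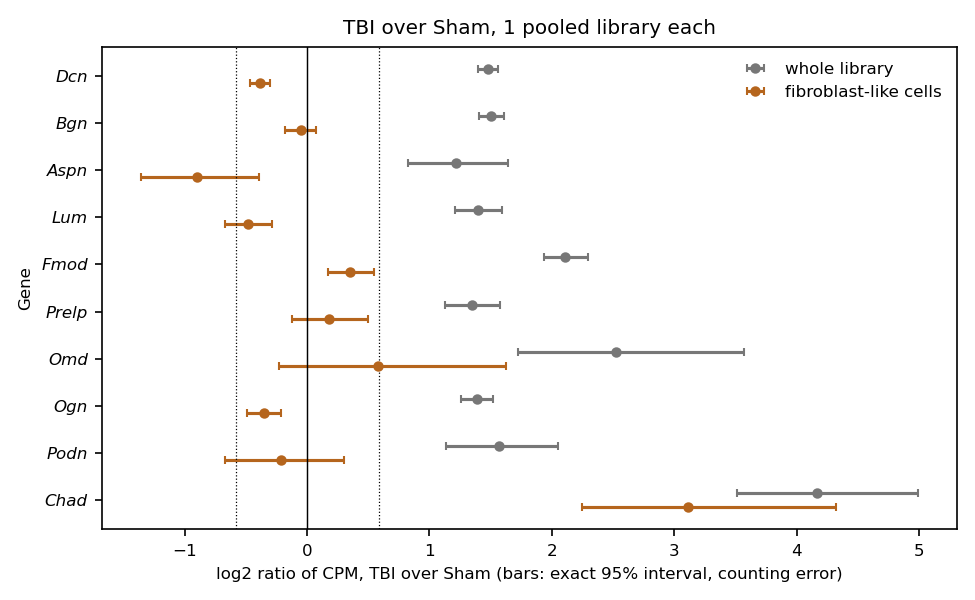
Log2 ratio of CPM, TBI over Sham, for each gene over the whole libraries (grey) and in fibroblast-like cells (brown), with exact 95% intervals for counting error and dotted lines at 1.5-fold. All 10 grey points lie right of 0, whereas the brown points lie between -0.90 and 0.58 except for Chad at 3.11.

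A few cells carried much of the Sham totals. In Sham fibroblast-like cells the lowest, median and highest Dcn counts were 0, 1 and 184 UMIs, and the 5 highest of 120 cells gave 784 of 1427 UMIs, 54.9%. In TBI cells they were 0, 2 and 181 UMIs, and the 5 highest of 757 gave 12.7%. Of those 5 Sham cells 3 were in the Clec3b-led subcluster. Without that subcluster, an alternative added after the values were seen, the Dcn ratio was -0.07 and that of all 10 genes 0.0028, and with predicted doublets removed they were -0.04 and -0.01. For Lum the 5 highest Sham cells gave 75.8% of the UMIs, and the mean over cells of counts per 10000 UMIs put its ratio at 0.13. For Aspn they gave 32 of 49 UMIs, 65.3%, and the mean over cells put its ratio at -0.38, which is within 1.5-fold. For Bgn the 5 highest Sham cells gave 259 of 609 UMIs, 42.5%, and 1 of them, in the Bglap-led subcluster, gave 107. The Bgn ratio was -0.53 in the Penk-led subcluster and 0.43 in the Comp-led, on 214 and 129 Sham UMIs.

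Chad had the largest ratio of the 10. It gave 9 UMIs in 4 of 120 Sham cells, 24.9 CPM (11.4 to 47.2), and 507 UMIs in 31 of 757 TBI cells, 226 CPM (207 to 247), a log2 ratio of 3.11 (2.25 to 4.32). The share of cells with a Chad UMI was 3.33% (0.916 to 8.31) in Sham and 4.10% (2.80 to 5.76) in TBI, against 0 of 371 and 2 of 290 B cell-like cells. The counts per cell were what differed: the highest was 3 UMIs in Sham and 107 in TBI, and the 5 highest TBI cells, all in the Comp-led subcluster, gave 336 of the 507 UMIs. In that subcluster 12 Sham cells gave 5 UMIs and 132 TBI cells 457, 87.5 and 832 CPM. When every cell counted equally the ratio was 0.80, still above 1.5-fold. In the Snhg11-led fibroblast-like cluster the level was lower in TBI, at 43.7 CPM in Sham and 16.9 CPM in TBI on 4 and 10 UMIs. The number of Sham cells limits this comparison, since 120 fibroblast-like cells, 12 of them in the Comp-led subcluster, were sampled.

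**Figure D5:**
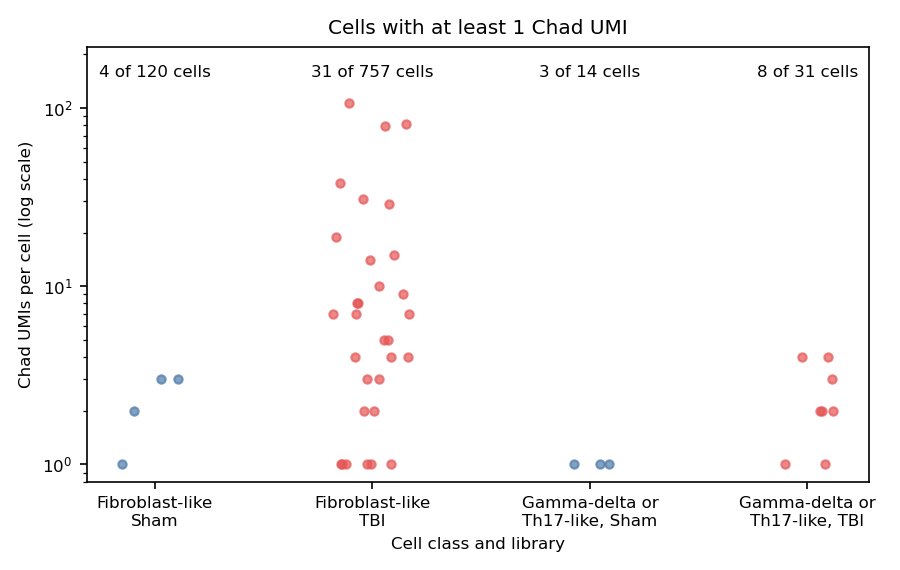
Chad UMIs in each cell that had at least 1, on a log scale, for fibroblast-like and gamma-delta or Th17-like cells of the Sham (blue) and TBI (red) libraries, with points spread sideways to be seen. Sham fibroblast-like cells reach 3 UMIs and TBI ones 107, and the gamma-delta or Th17-like cells stay at 4 UMIs or fewer.

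Outside fibroblast-like cells the log2 ratio of Dcn varied by class. It was 2.31 (1.69 to 3.06) in endothelial-like cells on 21 Sham and 227 TBI UMIs. In B cell-like cells it was 2.34 (0.83 to 4.50) on 4 and 16, and in pericyte-like cells 2.49 (1.23 to 4.56) on 4 and 72. Single TBI cells gave 36 of the 72 pericyte-like and 78 of the 227 endothelial-like UMIs. In macrophage-like cells the ratio was 0.64 on 22 Sham and 79 TBI UMIs, and in pineal gland-like cells 0.39 on 10 and 54. B cell-like cells are not known to make decorin. The ratio of Bgn was 0.36 (0.13 to 0.59) in endothelial-like cells, 0.18 (-0.34 to 0.77) in pericyte-like cells and 0.96 (0.26 to 1.75) in Schwann-like cells. That of Ogn in Schwann-like cells was 0.11 (-0.41 to 0.64), and that of Aspn in pericyte-like cells is given above. Prelp in choroid plexus-like cells was lower in TBI, at -0.90 (-1.33 to -0.46), with at most 15 UMIs in a Sham cell and 4 in a TBI cell. The part of free RNA in these ratios was not tested beyond these values.

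The genes that make, bind and cut these proteins were read from lists in the same fibroblast-like cells, against the same backgrounds of 11.7% and 12.7%. Of 8 other family genes, 4 had at least 20 UMIs, and none was past 1.5-fold. Among them Ecm2, the neighbour of Aspn, peaked in pericyte-like cells as Aspn did, at a mean of 226 CPM, and Epyc, in the cluster with Dcn and Lum, gave 16 Sham and 112 TBI UMIs and peaked in fibroblast-like cells, while Kera had no UMI in either library. Of 17 measured genes that build chondroitin and dermatan chains, 2 were higher in TBI, 2 lower and 13 within 1.5-fold. Dse, the epimerase that turns chondroitin into dermatan sulfate, had a log2 ratio of 0.45 (0.08 to 0.85), and its relative Dsel -0.79 (-1.35 to -0.16). Of 5 keratan sulfate genes 1 was higher, B4galt4, at 0.94 (-0.23 to 2.74) on 5 Sham and 65 TBI UMIs.

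Of the 10 collagens that bind these proteins, 9 were within 1.5-fold. Col1a1 and Col1a2, the chains of type I collagen, had ratios of 0.34 (0.25 to 0.42) and 0.15 (0.07 to 0.23), and Col6a3, a chain of the beaded microfibrils, was lower at -0.77 (-1.16 to -0.35). Of 9 measured proteases 2 were higher and 1 lower, the last being the aggrecanase Adamts5 at -0.85 (-1.38 to -0.26). Bmp1, which processes decorin and biglycan precursors, was at -0.54 (-0.92 to -0.12). Of 10 receptors 1 was higher and 2 lower, and of 6 growth factors 1 was higher. Tlr2, a receptor for soluble biglycan and decorin, peaked in macrophage-like cells in both libraries.

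The genes most like each member were ranked by Pearson's r of log2(CPM + 10) over the 36 columns, among 11703 other genes with at least 100 UMIs. Nearest to Dcn was Igfbp5 (0.96), to Bgn Fstl1 (0.97), to Lum Six2 (0.97), to Fmod Smoc1 (0.95), to Ogn Col1a2 (0.96), to Prelp Hspb8 (0.94), to Podn Slc47a2 (0.96) and to Omd Ntn5 (0.94). Nearest to Aspn was Ednra (0.98), the endothelin receptor of mural cells, followed by Aoc3 and Carmn. Chad had the weakest match, Marc1 (0.87). These r describe columns that share 2 libraries and their free RNA.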

How the data were processed

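The meninges of Sham and TBI mice gave 1 pooled single-cell library each. The deposited values were UMI counts per gene and barcode, which the authors made with Cell Ranger on mm10 (version 2.1.1 in the submitters' processing notes and 3.1.0 in the matrix headers, and an earlier one in the methods), without normalization. The study's limits were applied: 150 to 5000 genes, at most 20% mitochondrial and 5% hemoglobin UMIs, which left 2043 of 2699 Sham and 3773 of 4349 TBI barcodes. The cell counts the study gives before filtering lie between these values for each library. Cells of both libraries were clustered without the 10 genes (scanpy 1.11.5; 2000 variable genes, 20 components, 20 neighbours, Leiden resolution 0.8). A cluster took the class whose markers had the highest mean fold, with at least 3 of them 2-fold higher and in 10% of its cells, and not where another class had more markers among the top 10 genes, a rule chosen after seeing the data. UMIs were summed by class, and log2 ratios used 0.5 added to each sum, with intervals for counting error only. Doublets were kept; predicted ones (28 Sham, 114 TBI, the highest Scrublet scores up to 0.8% per 1000 cells) were removed in an alternative. A floor of 3 counts equals 0.381 CPM over the Sham and 0.215 CPM over the TBI library. The ratio calculation was tested on simulated data with known folds. The genes named were the 10 members, the fixed lists and, for each member, the 3 genes of most similar pattern, while cluster-level values were chosen after they were seen. Members and lists were chosen with earlier results of these data known.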

Additional observations from a re-analysis of the deposited data

Results flagged for a closer look

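UMIs of the 10 genes were also present in barcodes that the cell filters removed and that no comparison used, above the limit of 3 counts. The 656 Sham barcodes removed held 121 such UMIs (72.9 CPM) in 34 barcodes, and the 576 TBI barcodes removed held 540 (504.5 CPM) in 196. Of these, 604 Sham and 431 TBI barcodes exceeded the hemoglobin limit. What these barcodes are was not tested.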

How the results depend on the processing

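No paired analysis was possible because each group is 1 library, and for the same reason no replicate could be left out. The summed log2 ratio of the 10 genes in fibroblast-like cells, -0.19, became -0.01 (-0.0062) without predicted doublets, -0.29 at Leiden resolution 1.6, 0.022 as a mean over cells, 0.0028 without the Clec3b-led subcluster and 0.52 in the Comp-led subcluster alone, where the ratios of Aspn, Dcn and Lum turned to 1.31, 0.94 and 1.47 on 2, 115 and 4 Sham UMIs. The cause of each shift was not tested. The whole-library ratio of 1.55 became 1.71 without doublets, 1.66 with no hemoglobin limit and 1.47 after scaling by the median ratio. The Sham share held by fibroblast-like cells, 83.3%, became 81.7% without doublets, 79.8% at resolution 1.6, 81.6% with cells assigned by their own markers and 78.4% with names from the top 50 genes, and the TBI share of 87.0% became 87.5%, 77.9%, 82.9% and 78.8%, as well as 87.7% in cells of at least 1000 UMIs and 90.6% after the B cell-like level was taken off. With at least 100 UMIs in the class 5.69% of genes were past 1.5-fold upward and 5.02% downward, and with no filter 27.1% downward. The number of genes peaking in fibroblast-like cells ranged from 7 to 9. Chad was past 1.5-fold upward in all 17 alternatives (0.80 to 4.47), Aspn downward in 15 and upward in the Comp-led subcluster, and within 1.5-fold as a mean over cells (-0.38). Dcn and Lum passed 1.5-fold downward at resolution 1.6 (-0.61 and -0.88). Omd passed it upward in 8 of the 17 alternatives, with ratios from 0.39 to 1.25 over all 17. The naming by top 50 genes, the subcluster exclusions and the removal of shared barcodes were added after the data had been seen. Counts of 12 Omd, 9 Chad, 44 Podn and 49 Aspn UMIs in Sham fibroblast-like cells limit those ratios.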
